A study of Saccharomyces cerevisiae with 16 samples.

Results

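The genes described here encode the soluble factors that carry ribosomes through initiation, elongation and release, together with *PAB1* (poly(A)-binding protein). They were chosen by systematic name from the roles their products are known for and not by measured values, although earlier results of these data were known. They are 36 of the 7126 features of the count table, 25 of them for initiation (with *PAB1*), 9 for elongation and 2 for release. The study used budding yeast strain YJB622 (a MATa haploid with hog1∆::LEU2 and crz1∆::KanMx, a Hcm1-3HA-HIS3 tag, and the auxotrophies met15∆0, his3∆0, ura3∆0 and leu2∆0), so every group lacked both *CRZ1*, the gene of the transcription factor downstream of calcineurin (CN), and *HOG1*, the gene of the osmotic stress MAP kinase. Cells of the BY4741 background growing in synthetic medium with ammonium chloride received ET buffer (control) or 1 μg/ml FK506, a CN inhibitor, 15 min ahead of 200 mM CaCl2. RNA-seq of total RNA depleted of rRNA was performed at 0, 10, 30 and 60 min in duplicate time courses, which gives 8 groups of 2 libraries. The comparison of ET with FK506 addresses which changes need CN in cells without Hog1, and with 1 strain and no cells with intact *CRZ1* or *HOG1* the part of either deletion cannot be told apart.

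A round of initiation begins when eIF2 brings the initiator tRNA to the small ribosomal subunit, eIF3 holds the complex together, and eIF4 proteins load it onto the capped mRNA. eIF1, eIF1A and eIF5 set the start codon, eIF5B joins the large subunit, and eIF2B recharges eIF2 with GTP. In elongation eEF1A delivers tRNAs, eEF1B recharges eEF1A, eEF2 moves the ribosome, and fungi also need the ATPase eEF3. eRF1 and eRF3 end the chain. In growing yeast the genes of these factors, like those of ribosomal proteins, include many highly transcribed ones, and their mRNAs are known to drop in many stresses.

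Total counts per library lay between 11221758 and 11970166. *HOG1* had 0 counts in the 16 libraries and *CRZ1* had 2 in all, and the summed counts of 4 MATa-specific genes (*MFA1*, *MFA2*, *STE2*, *BAR1*) were 21664 to 37934 per library against 404 to 710 for 3 MATα-specific genes, as the labels give them. Levels below are CPM, the counts of a gene per 1e+06 counts of its library after TMM scaling of the total, given for replicates 1 and 2 in that order, and changes are log2 values from 1 limma voom fit of 6206 genes in which an adjusted p under 0.05 was the threshold for a call. CPM are shares of the counted RNA, and in bulk samples fewer cells with an RNA cannot be told apart from less RNA per cell. Of the 36 genes, 35 passed the filter on low counts. *HYP2* (eIF5A; YEL034W, chromosome V, 85676 to 86149, forward strand) had 0 counts in each of the 16 libraries. The annotation holds 8 genes that lie wholly inside a gene on the opposite strand, and 8 of these 8 had a total of 0 while the outer genes had 197 to 17199, and the count table holds a feature named for the strand opposite *HYP2* (YEL034C-A, 37 counts in all). The next gene on the strand of *HYP2*, *MTC7*, begins after a gap of 29 bases and had 2680 to 5018 counts per library. The value of 0 is therefore not taken as a level of *HYP2* RNA, and the gene is left out of the counts of genes called. It is kept in the count of upstream motifs.

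After CaCl2 nearly the whole set was lower in both treatments. In ET 32 of the 35 genes were lower at 10 min and none was higher (median log2 change -0.48), against 58.4% of all genes called, 26.6% higher and 31.8% lower. In FK506 32 were lower at 10 min and *CAM1* was higher (median -0.56), against 54.4% of all genes called, 24.3% higher and 30.1% lower. That early rise of *CAM1* (0.12 ± 0.050 SE, adjusted p 0.046 in limma) lost its call when either 0 min library of either treatment, either FK506 library at 10 min, or replicate 1 of FK506 at 30 min was left out (values 0.10 to 0.14, limma adjusted p 0.057 to 0.19).

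At 30 min 34 genes were lower in ET (median -1.39; 68.4% of all genes called, 33.1% higher and 35.3% lower), of which *TIF4632* lost its direction on raw library totals, and 33 in FK506 (median -0.92; 52.1% of all genes called, 24.5% higher and 27.6% lower), and *CAM1* was higher in both. At 60 min the treatments had parted. In ET 34 genes were still lower, with a median of -1.60 (68.4% of all genes called, 33.6% higher and 34.7% lower). In FK506 31 were lower, with a median of -0.35 (28.6% of all genes called, 12.9% higher and 15.7% lower), but 22 on raw library totals, 21 without replicate 1 of FK506 at 0 min and 23 without its replicate 1 at 60 min. The median of all genes tested was between -0.031 and 0.015 in these comparisons. Without TMM factors, on raw library totals, that median moved up by 0.056 to 0.24, and the medians of the set were then -1.36 in ET and -0.23 in FK506 at 60 min.

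**Figure D1:**
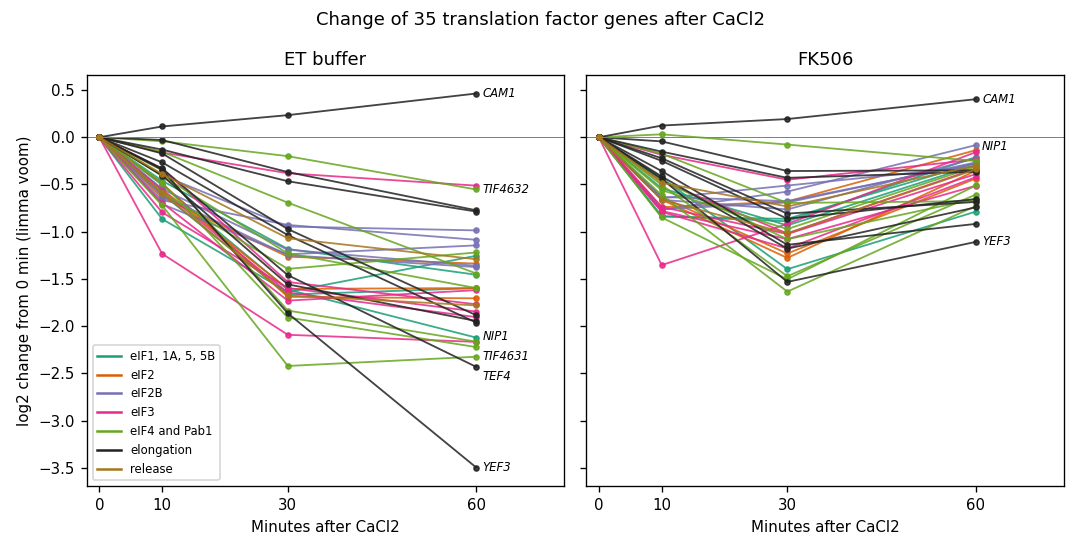
Log2 change from 0 min (y axis, limma voom) of 35 genes against minutes after CaCl2 (x axis), with ET on the left and FK506 on the right, 1 line per gene coloured by role. Most lines fall to 30 min in both panels; by 60 min they reach a median of -1.60 in ET and return to -0.35 in FK506, and *CAM1* is the line above 0 at 60 min in both.

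The plot of changes by time shows the turn between 30 and 60 min. In FK506 31 of the 35 genes rose again between these times and none fell further (median 0.54; 40.9% of all genes called, 23.1% higher and 17.8% lower), and the 4 without a call were *TIF1*, *TIF4632*, *TEF2* and *EFT1*. In ET 15 genes fell further, 2 rose (*SUI1* and *CAM1*) and 18 had no call (median -0.22; 20.7% of all genes called, 9.81% higher and 10.9% lower). The further fall in ET was found in 7 of 8 elongation genes and 5 of 7 genes of the eIF4 group, in 2 of 4 start codon genes and 1 of 6 of eIF3, and in none of the 10 genes of eIF2, eIF2B and release. Single libraries ended 5 of these calls. They were *PRT1*, the only one of eIF3 (-0.24; -0.18 to -0.19 without replicate 1 of ET at 30 or 60 min), *TIF2* (-0.33; -0.26 to -0.29 without the same libraries), and *TIF3* (-0.31; -0.19 to -0.32 without either ET library at 30 min or replicate 1 at 60 min). The other two were *TIF4632* (-0.35; -0.25 without replicate 1 of ET at 60 min) and *FUN12* (-0.27; -0.24 to -0.31 without either ET library at 30 min or replicate 2 at 60 min). Leaving out 1 library gave 12 to 18 calls in ET and 27 to 31 in FK506.

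The difference between treatments was tested directly, as the change from 0 min in ET minus that in FK506. At 10 min limma called 0 of the 35 genes (0.0806% of all genes called, 0.0161% higher and 0.0645% lower), and edgeR and DESeq2 also called 0. An unadjusted p under 0.05 in limma was found for 2 of the 35, against 432 of all 6206 genes. At 30 min 23 were lower in ET than in FK506 and none was higher (median difference -0.38; 31.7% of all genes called, 13.9% higher and 17.8% lower). At 60 min 34 were lower and none was higher (median -1.20; 51.9% of all genes called, 23.9% higher and 27.9% lower), and *CAM1* was the gene without a call. Before CaCl2, at 0 min, limma called 0 of the 35 genes between ET and FK506 (1.76% of all genes called, 1.08% higher and 0.677% lower), and edgeR and DESeq2 called 0. An unadjusted p under 0.05 in limma was found for 9 of the 35, against 1002 of all 6206 genes. Nominally higher in ET were 33 of the 35, against 3297 of all 6206. The median was 0.091 for the set and 0.011 for all genes.

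**Figure D2:**
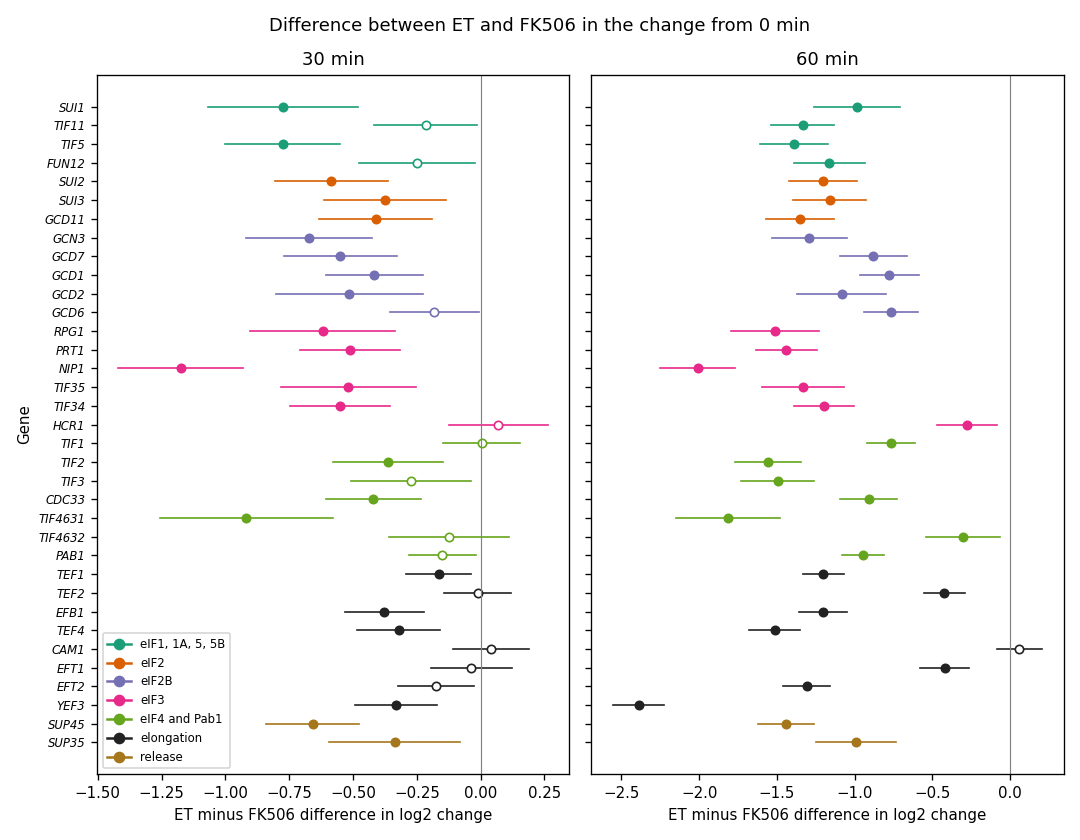
ET minus FK506 difference in log2 change (x axis; point and 95% confidence interval from limma) for 35 genes (y axis, in order of role) at 30 min and 60 min. Filled points passed the adjusted threshold, 23 at 30 min and 34 at 60 min, and each filled point lies below 0; *YEF3* (-2.39) and *NIP1* (-2.01) lie lowest at 60 min.

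A stricter call, which also asked for a log2 change of at least 1, was met by 1 of the 35 genes in ET at 10 min (12% of all genes) and by 1, 15 and 1 in FK506 at 10, 30 and 60 min (10.7%, 12.1% and 2.66%). In ET at 30 and 60 min it was met by 26 and 29 (22.7% and 23.4%). For the difference between treatments 0, 1 and 22 genes met it at 10, 30 and 60 min (0%, 5.37% and 17.7%), and 0 did so at 0 min (0.0161%). For 60 against 30 min it was met by 1 gene in ET and 0 in FK506 (2.51% and 5.8%).

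The 4 genes of start codon selection and subunit joining were lower at each time in ET and at 10 and 30 min in FK506, and at 60 min the 4 were lower in ET than in FK506 (median difference -1.25). In FK506 at 60 min *TIF11* was lower (-0.79), and the calls of the other 3 ended with single libraries left out. *SUI1* (-0.27) was -0.15 (adjusted p 0.34 in limma) without replicate 1 of FK506 at 0 min and -0.19 (adjusted p 0.24 in limma) without its replicate 2 at 60 min. *FUN12* (-0.29) was -0.27 (adjusted p 0.055 in limma) without replicate 1 of FK506 at 0 min and -0.20 (adjusted p 0.12 in limma) without its replicate 1 at 60 min. *TIF5* (-0.21) lost its call without either ET library at 30 min, either FK506 library at 0 min, or replicate 1 of FK506 at 60 min (-0.16 to -0.21). *FUN12*, for the GTPase eIF5B (YAL035W, chromosome I, 76427 to 79435, forward strand), had the highest mean count among them. In ET *FUN12* went from 749 and 694 CPM (0 min) through 529 and 518 (10 min) and 319 and 316 (30 min) to 266 and 260.0 (60 min). In FK506 *FUN12* went from 724 and 689 CPM (0 min) through 512 and 461 (10 min) and 341 and 401 (30 min) to 549 and 606 (60 min). The ET pairs stepped down at each time without overlap, whereas the FK506 pair at 60 min lay above that at 30 min and below that at 0 min. Its log2 change in ET was -1.46 ± 0.077 (SE, adjusted p 2.0e-11 in limma) at 60 min, and the difference from FK506 was -1.16 ± 0.11 (SE, adjusted p 8.4e-08 in limma).

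*SUI1* encodes eIF1, which keeps the scanning ribosome from starting at a wrong codon (YNL244C, chromosome XIV, 187170 to 187496, reverse strand), and had the earliest large fall of this group. In ET *SUI1* went from 169 and 145 CPM (0 min) through 92.5 and 79.4 (10 min) and 48.8 and 51.9 (30 min) to 65.98 and 65.2 (60 min). In FK506 *SUI1* went from 165 and 128 CPM (0 min) through 91.3 and 72.0 (10 min) and 86.2 and 73.9 (30 min) to 133 and 109 (60 min). The 30 min libraries were lowest in ET, and the 60 min pair lay above them but well under 0 min, while in FK506 the 10 and 30 min pairs overlapped. Its changes in ET were -0.87 ± 0.094 (SE, adjusted p 5.9e-07 in limma) at 10 min and -1.64 ± 0.10 (SE, adjusted p 2.2e-10 in limma) at 30 min. The rise in ET from 30 to 60 min (0.38 ± 0.11 SE, adjusted p 0.021 in limma) was 0.17 (adjusted p 0.41 in limma) without replicate 1 of ET at 30 min, 0.25 (adjusted p 0.20 in limma) without replicate 2 of ET at 60 min, and 0.58 (adjusted p 0.0029 in limma) without replicate 2 of ET at 30 min. *TIF11* (eIF1A, the partner of eIF1 in scanning) went on falling in ET, from -1.61 at 30 min to -2.12 at 60 min. *TIF5* (eIF5, the GTPase activator of eIF2) stayed at -1.67 and -1.60.

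The 3 subunit genes of eIF2, which carries initiator tRNA, fell at 10 and 30 min in both treatments, and at 60 min each was lower in ET than in FK506. Between 30 and 60 min in ET, *SUI2* (alpha, the subunit that Gcn2 phosphorylates) went from -1.26 to -1.34, *SUI3* (beta) from -1.61 to -1.60, and *GCD11* (gamma, the GTP-binding subunit) from -1.69 to -1.71, with no call for the step between these times. In ET *GCD11* went from 499 and 485 CPM (0 min) through 357 and 344 (10 min) and 166 and 140.4 (30 min) to 145 and 157 (60 min). In FK506 *GCD11* went from 479.9 and 469 CPM (0 min) through 309.6 and 291 (10 min) and 188 and 203 (30 min) to 356 and 386 (60 min). The ET pairs at 30 and 60 min overlapped at a low level, and in FK506 the 60 min pair stood above the 30 and 10 min pairs. The 60 min difference between treatments for *GCD11* (YER025W, chromosome V, 205251 to 206834, forward strand) was -1.35 ± 0.10 (SE, adjusted p 7.3e-09 in limma), and those of *SUI2* and *SUI3* were -1.20 and -1.16.

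The 5 genes of eIF2B, the exchange factor that reloads eIF2 with GTP, fell early and less deeply, with a median of -0.62 at 10 min and -1.15 at 60 min in ET. *GCD1* (gamma subunit; YOR260W, chromosome XV, 813984 to 815720, forward strand) had the highest mean count of the 5 over the 16 libraries. In ET *GCD1* went from 292 and 287 CPM (0 min) through 187 and 178 (10 min) and 150.5 and 154 (30 min) to 132 and 141 (60 min). In FK506 *GCD1* went from 271 and 261 CPM (0 min) through 178 and 162 (10 min) and 177 and 196 (30 min) to 218 and 211 (60 min). Most of the fall was present at 10 min in both treatments, and in FK506 the 10 and 30 min pairs overlapped before the 60 min pair rose above them. The 60 min change of *GCD1* was -1.09 ± 0.064 (SE, adjusted p 8.3e-11 in limma) in ET and -0.31 ± 0.062 (SE, adjusted p 0.0011 in limma) in FK506, a difference of -0.78 ± 0.090 (SE, adjusted p 1.2e-06 in limma). The other subunits had 60 min values in ET of -1.38 for *GCN3* (alpha), -1.15 for *GCD7* (beta), -1.36 for *GCD2* (delta) and -0.99 for *GCD6* (epsilon, the catalytic subunit), and *GCN3* had the largest difference between treatments, -1.29.

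Of the 6 genes of eIF3, the scaffold of the initiation complex, 5 fell by 1.62 to 2.17 on the log2 scale in ET at 60 min, and *HCR1* by 0.51. *NIP1* encodes the c subunit, which binds eIF1 and eIF5 (YMR309C, chromosome XIII, 892988 to 895426, reverse strand), and its fall at 10 min was the deepest of the 35 genes in both treatments. In ET *NIP1* went from 779 and 723 CPM (0 min) through 340.2 and 299 (10 min) and 173 and 179 (30 min) to 163 and 172 (60 min). In FK506 *NIP1* went from 663 and 659.5 CPM (0 min) through 285 and 235 (10 min) and 327 and 374 (30 min) to 595 and 591 (60 min). In ET the pairs were lower at each time without overlap, but the step from 30 to 60 min had no call. In FK506 the lowest pair was that of 10 min and the 60 min pair was close to 0 min. The 10 min change was -1.23 ± 0.081 (SE, adjusted p 1.7e-09 in limma) in ET and -1.35 ± 0.082 (SE, adjusted p 8.6e-10 in limma) in FK506. The difference between treatments was -1.17 ± 0.12 (SE, adjusted p 3.3e-06 in limma) at 30 min, the largest of the 35 genes, and -2.01 ± 0.11 (SE, adjusted p 1.7e-10 in limma) at 60 min. In FK506 the 60 min value, -0.16 with a 95% confidence interval of -0.32 to 0.0081, was not called.

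*RPG1*, for the a subunit (YBR079C, chromosome II, 395383 to 398277, reverse strand), had the highest mean count of the eIF3 genes over the 16 libraries, although *NIP1* or *PRT1* was higher in each of the 8 groups. In ET *RPG1* went from 687 and 675 CPM (0 min) through 479.8 and 442 (10 min) and 208 and 229 (30 min) to 171 and 193 (60 min). In FK506 *RPG1* went from 667 and 639 CPM (0 min) through 409.7 and 374 (10 min) and 280.5 and 366 (30 min) to 466 and 532 (60 min). The ET pairs were lower at each time without overlap, with no call for the step from 30 to 60 min. At 60 min both FK506 libraries were far above either ET library. The difference at 60 min was -1.51 ± 0.13 (SE, adjusted p 4.9e-08 in limma). *PRT1* (b), *TIF34* (i) and *TIF35* (g) had 60 min differences of -1.44, -1.20 and -1.33.

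*HCR1* encodes the loosely bound j subunit, which also acts in termination (YLR192C, chromosome XII, 538792 to 539589, reverse strand), and moved least in this group. In ET *HCR1* went from 255 and 237 CPM (0 min) through 227 and 213 (10 min) and 191 and 187 (30 min) to 169 and 176 (60 min). In FK506 *HCR1* went from 242 and 237 CPM (0 min) through 213 and 208 (10 min) and 178 and 173 (30 min) to 191 and 216 (60 min). The ET pairs fell slowly without overlap, and the step from 30 to 60 min had no call. In FK506 the 30 min pair was the lowest, under that of ET at 30 min, and the 60 min pair lay above that of ET. The 60 min change in ET was -0.51 ± 0.065 (SE, adjusted p 1.9e-06 in limma) and the difference between treatments -0.28 ± 0.092 (SE, adjusted p 0.018 in limma), the smallest of the called ones. Without replicate 1 of ET at 0 min that difference was -0.22 (adjusted p 0.096 in limma), without replicate 1 of ET at 60 min -0.23 (adjusted p 0.095 in limma), and without replicate 2 of FK506 at 60 min -0.13 (adjusted p 0.23 in limma).

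Within the eIF4 group the 2 genes of eIF4G, the scaffold that joins the cap-binding protein eIF4E, the helicase eIF4A and Pab1, parted. *TIF4631* (eIF4G1; YGR162W, chromosome VII, 824059 to 826917, forward strand) had the deepest fall of the 35 genes in ET at 30 min. In ET *TIF4631* went from 952 and 895 CPM (0 min) through 602 and 521 (10 min) and 165 and 179 (30 min) to 166 and 204 (60 min). In FK506 *TIF4631* went from 890.3 and 795 CPM (0 min) through 515 and 424 (10 min) and 269 and 327 (30 min) to 558 and 625 (60 min). The ET pairs of 30 and 60 min overlapped at the bottom, and the FK506 pair of 60 min lay above that of 10 min. Its change in ET at 30 min was -2.42 ± 0.12 (SE, adjusted p 5.7e-12 in limma), the difference from FK506 was -0.92 ± 0.16 (SE, adjusted p 4.4e-04 in limma) at 30 min and -1.81 ± 0.16 (SE, adjusted p 3.8e-08 in limma) at 60 min, and its rise between 30 and 60 min in FK506 (0.99 ± 0.11 SE, adjusted p 1.7e-06 in limma) was the largest of the 35. *TIF4632* (eIF4G2; YGL049C, chromosome VII, 406860 to 409604, reverse strand) had no call at 10 min in either treatment. In ET *TIF4632* went from 243 and 234 CPM (0 min) through 226 and 236 (10 min) and 199 and 216 (30 min) to 145 and 181 (60 min). In FK506 *TIF4632* went from 243 and 238 CPM (0 min) through 242 and 249.6 (10 min) and 219.8 and 236 (30 min) to 182 and 224 (60 min). In ET the 0 and 10 min pairs overlapped and the 30 and 60 min pairs lay below them. Its change at 60 min in ET was -0.55 ± 0.080 (SE, adjusted p 8.4e-06 in limma). At 30 min in ET it was -0.20 ± 0.079 (SE, adjusted p 0.032 in limma), a call that ended without replicate 1 of ET at 0 min, either ET library at 30 min, replicate 1 of ET at 60 min, or replicate 2 of FK506 at 30 or 60 min (values -0.12 to -0.16), and on raw library totals it was on the other side of 0 (7e-05, limma adjusted p 0.999).

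The 300 bases that run from 400 bases before the start codon up to the last 100 are shown for these genes. The sequence is the RefSeq reference of build R64, read 5′ to 3′ on the strand of the gene. Capitals mark matches, on either strand, to AAAATTT (the core of the RRPE element found upstream of many ribosome biogenesis genes), GATGAG (the core of the PAC element of the same genes), a Rap1 consensus of 10 letters, 2 of them free, TGACTC (Gcn4) and AGGGG (the stress response element of Msn2 and Msn4); neighbouring matches run together. A match is a description of letters and not a shown binding site.
*TIF4631* (chrVII:823659-823958, forward strand): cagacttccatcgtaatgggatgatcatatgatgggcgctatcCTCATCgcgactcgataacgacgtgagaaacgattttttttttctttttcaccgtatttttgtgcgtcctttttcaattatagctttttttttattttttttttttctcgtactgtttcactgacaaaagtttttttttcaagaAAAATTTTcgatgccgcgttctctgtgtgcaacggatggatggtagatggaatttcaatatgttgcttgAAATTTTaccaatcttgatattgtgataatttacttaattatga
*TIF4632* (chrVII:409705-410004, reverse strand): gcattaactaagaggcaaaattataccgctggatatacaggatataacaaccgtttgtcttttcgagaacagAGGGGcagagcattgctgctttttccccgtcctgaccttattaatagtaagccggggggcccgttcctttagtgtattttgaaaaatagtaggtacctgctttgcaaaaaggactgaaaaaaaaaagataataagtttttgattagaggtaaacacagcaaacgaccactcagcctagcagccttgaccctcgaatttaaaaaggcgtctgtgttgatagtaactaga
The *TIF4631* window had 3 RRPE core matches and 1 PAC core match, and that of *TIF4632* had 0 of either and 1 stress element match. AAAATTTT is counted as a match on each strand.

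*PAB1* (YER165W, chromosome V, 510373 to 512106, forward strand), whose product binds poly(A) tails and eIF4G, had the most counts of this group. In ET *PAB1* went from 2116 and 2139 CPM (0 min) through 1633 and 1570.1 (10 min) and 928 and 886 (30 min) to 709 and 697 (60 min). In FK506 *PAB1* went from 2082 and 2034 CPM (0 min) through 1559.6 and 1439.6 (10 min) and 979.8 and 967 (30 min) to 1309.8 and 1309.7 (60 min). The pairs were tight and did not overlap between times within a treatment. The change at 60 min was -1.60 ± 0.045 (SE, adjusted p 2.4e-15 in limma) in ET and -0.65 ± 0.044 (SE, adjusted p 3.5e-09 in limma) in FK506. *TIF3* (eIF4B, an activator of eIF4A; YPR163C, chromosome XVI, 868645 to 869955, reverse strand) had the lowest value of the 35 genes in FK506 at 30 min. In ET *TIF3* went from 729 and 711 CPM (0 min) through 538 and 494 (10 min) and 194 and 189 (30 min) to 143 and 167 (60 min). In FK506 *TIF3* went from 692 and 663 CPM (0 min) through 480.0 and 408 (10 min) and 214 and 222 (30 min) to 394 and 424 (60 min). The 30 min pairs of both treatments were low, and at 60 min the ET pair was lower still while that of FK506 overlapped its 10 min pair. Its change in FK506 at 30 min was -1.64 ± 0.079 (SE, adjusted p 1.3e-11 in limma) and the 60 min difference -1.49 ± 0.11 (SE, adjusted p 5.0e-09 in limma). *CDC33* (eIF4E, which binds the cap) fell by 1.22 on the log2 scale in ET at 60 min, with a difference of -0.91.

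The elongation genes held both the deepest fall and the single rise. *YEF3* (YLR249W, chromosome XII, 636780 to 639914, forward strand) encodes eEF3, the ABC ATPase that fungal ribosomes need to release deacylated tRNA. In ET *YEF3* went from 16897 and 16389 CPM (0 min) through 13653 and 12594 (10 min) and 4920.4 and 4247 (30 min) to 1448 and 1498 (60 min). In FK506 *YEF3* went from 15713 and 15674 CPM (0 min) through 12307 and 10857 (10 min) and 5586 and 5272 (30 min) to 7246 and 7319 (60 min). The ET pairs stepped down without overlap to 11.3-fold below 0 min, whereas the FK506 pair of 60 min lay above that of 30 min. The change at 60 min was -3.50 ± 0.057 (SE, adjusted p 3.7e-18 in limma) in ET and -1.11 ± 0.053 (SE, adjusted p 7.9e-11 in limma) in FK506, the lowest of the 35 genes in each, and the difference was -2.39 ± 0.078 (SE, adjusted p 1.8e-13 in limma). Between 30 and 60 min it fell by 1.63 in ET on the log2 scale, the only gene of the set to fall by more than 1 there. Levels per length at 0 min in ET were ranked without *TIF1*, *TIF2*, *TEF1*, *TEF2*, *EFT1* and *EFT2*, whose copies share most of their sequence. Among the other genes *YEF3* was highest, at 5309 ± 115 CPM per kb of coding sequence (SD, n = 2). It was followed by *EFB1* at 4122 ± 130.0 and *TEF4* at 2447 ± 57.3. The lowest was *TIF4632* at 86.8 ± 2.44, next to *GCD2* at 92.0 ± 8.09.

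eEF1B, which recharges eEF1A, has a gamma subunit encoded by *TEF4* and by *CAM1*, and these went opposite ways. *TEF4* (YKL081W, chromosome XI, 282891 to 284455, forward strand; its 1 intron holds an annotated ncRNA) fell at each time. In ET *TEF4* went from 3082 and 2982 CPM (0 min) through 2506 and 2321 (10 min) and 1163 and 1044 (30 min) to 542 and 583 (60 min). In FK506 *TEF4* went from 2930.0 and 2868 CPM (0 min) through 2403 and 2127 (10 min) and 1352 and 1281 (30 min) to 1556 and 1513 (60 min). No ET pair overlapped another, and in FK506 the 60 min pair lay above the 30 min pair. The 60 min change was -2.43 ± 0.057 (SE, adjusted p 1.8e-16 in limma) in ET and -0.92 ± 0.054 (SE, adjusted p 6.5e-10 in limma) in FK506, with a difference of -1.51 ± 0.078 (SE, adjusted p 4.6e-11 in limma). *CAM1* (YPL048W, chromosome XVI, 464401 to 465648, forward strand) was the gene of the set that rose. In ET *CAM1* went from 552 and 560.1 CPM (0 min) through 585 and 618 (10 min) and 660.4 and 647 (30 min) to 779 and 754 (60 min). In FK506 *CAM1* went from 564 and 557 CPM (0 min) through 619 and 602 (10 min) and 636 and 645 (30 min) to 762 and 721 (60 min). Its pairs climbed at each time without overlap in both treatments, and the 60 min pairs of ET and FK506 overlapped. The change at 60 min was 0.46 ± 0.049 (SE, adjusted p 2.0e-07 in limma) in ET and 0.40 ± 0.049 (SE, adjusted p 5.6e-06 in limma) in FK506. The difference, 0.060 with a 95% confidence interval of -0.087 to 0.21, was not called, but on raw library totals it was 0.17 (adjusted p 0.044 in limma). *EFB1* (the catalytic alpha subunit of eEF1B, also with an ncRNA in its intron) fell too, with -1.56 in ET at 30 min against -1.46 for *TEF4*. By 60 min in ET *EFB1* had fallen less than *TEF4*. Its mean went from 2560 CPM at 0 min to 664, and that of *TEF4* from 3032 to 562.

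**Figure D3:**
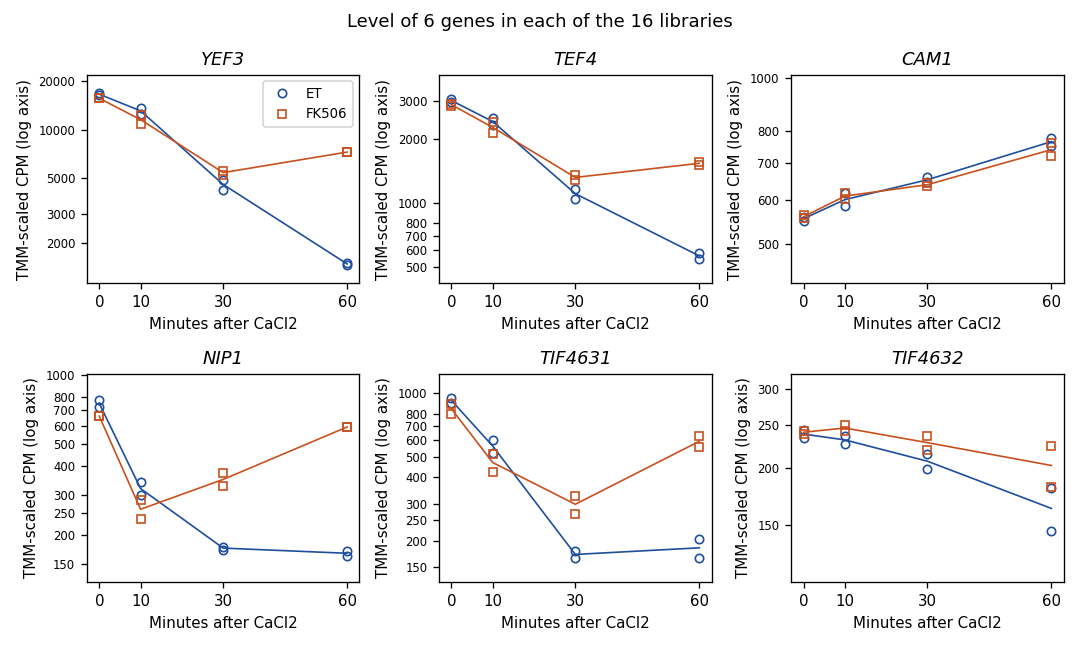
TMM-scaled CPM (y axis, log scale) against minutes after CaCl2 (x axis) for 6 genes in the 16 libraries, with circles for ET, squares for FK506 and lines through the means of 2 replicates. *YEF3*, *TEF4*, *NIP1* and *TIF4631* fall in both treatments. In FK506 *NIP1* turns up from 30 min, and *YEF3*, *TEF4* and *TIF4631* turn up at 60 min. *CAM1* climbs in both, and *TIF4632* stays within 145 to 249.6 CPM.

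The promoter windows of this pair are shown too, marked as those of eIF4G.
*TEF4* (chrXI:282491-282790, forward strand): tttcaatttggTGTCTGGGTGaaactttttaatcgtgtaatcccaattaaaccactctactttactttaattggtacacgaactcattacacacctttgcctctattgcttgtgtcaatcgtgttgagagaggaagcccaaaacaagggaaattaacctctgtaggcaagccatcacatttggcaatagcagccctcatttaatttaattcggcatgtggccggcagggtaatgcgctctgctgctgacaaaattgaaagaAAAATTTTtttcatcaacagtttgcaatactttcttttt
*CAM1* (chrXVI:464001-464300, forward strand): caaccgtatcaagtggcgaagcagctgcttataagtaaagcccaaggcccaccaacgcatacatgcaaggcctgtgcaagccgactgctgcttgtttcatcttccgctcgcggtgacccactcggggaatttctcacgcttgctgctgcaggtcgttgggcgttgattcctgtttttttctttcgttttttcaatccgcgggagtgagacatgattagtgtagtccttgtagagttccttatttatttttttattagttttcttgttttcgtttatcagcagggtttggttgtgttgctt
The *TEF4* window had 2 RRPE core matches and 1 Rap1 match, the only one among the 36 genes. The *CAM1* window had 0 matches to the 5 motifs. Windows of the other pairs, whose copies also moved apart, are not shown. *TEF1* had 4 RRPE core matches against 0 for *TEF2*, and *TEF1* fell more. *EFT1* had 4 against 2 for *EFT2*, each 2 of these matches being 1 AAAATTTT read on both strands. The 2 matches of *TIF1* are likewise 1 AAAATTTT, and *TIF2* had 1 match, so these copies did not differ in number of sites. *EFT1* and *TIF1* fell less than their partners. Whether the matches bear on the falls was not tested. The split of counts between these near-identical copies is uncertain, as given below.

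eEF1A, the carrier of aminoacyl-tRNA, is encoded by *TEF1* (YPR080W, chromosome XVI, 700594 to 701970, forward strand) and *TEF2* (YBR118W, chromosome II, 477671 to 479047, forward strand), and eEF2, the translocase, by *EFT1* (YOR133W, chromosome XV, 575098 to 577626, forward strand) and *EFT2* (YDR385W, chromosome IV, 1243230 to 1245758, forward strand). In each pair 1 copy fell more. In ET *TEF2* went from 2431 and 2338 CPM (0 min) through 2346 and 2327 (10 min) and 1865 and 1827 (30 min) to 1429 and 1360.2 (60 min). In FK506 *TEF2* went from 2337 and 2245 CPM (0 min) through 2232 and 2213 (10 min) and 1843 and 1735 (30 min) to 1889 and 1709 (60 min). The 0 and 10 min pairs of *TEF2* overlapped in ET, and in FK506 the 30 and 60 min pairs did. In ET *TEF1* went from 2252 and 2161 CPM (0 min) through 2003 and 1916 (10 min) and 1142 and 1107 (30 min) to 594 and 601 (60 min). In FK506 *TEF1* went from 2102 and 2031 CPM (0 min) through 1779 and 1762 (10 min) and 1199 and 1161 (30 min) to 1331 and 1241 (60 min). *TEF1* fell at each step in ET without overlap and ended well under *TEF2*, from which it had differed little at 0 min. The 60 min changes in ET were -1.89 ± 0.044 (SE, adjusted p 1.7e-16 in limma) for *TEF1* and -0.77 ± 0.044 (SE, adjusted p 5.7e-11 in limma) for *TEF2*. *TEF1* also had the smallest called values in 2 comparisons: its 30 min difference, -0.16 ± 0.060 (SE, adjusted p 0.047 in limma), lost the call when any of 14 of the 16 libraries was left out (all but replicate 1 of FK506 at 60 min and replicate 2 of ET at 60 min; -0.14 to -0.17), and its rise in FK506 from 30 to 60 min, 0.12 ± 0.043 (SE, adjusted p 0.030 in limma), did so without either FK506 library at 30 min or replicate 1 of FK506 at 60 min (0.094 to 0.13).

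In ET *EFT1* went from 622 and 619 CPM (0 min) through 577 and 556 (10 min) and 452 and 446 (30 min) to 374 and 345 (60 min). In FK506 *EFT1* went from 602 and 581 CPM (0 min) through 557 and 508 (10 min) and 452 and 427 (30 min) to 486 and 433 (60 min). *EFT1* fell at each step in ET, and in FK506 its 30 and 60 min pairs overlapped. Its 10 min change in ET, -0.13 ± 0.052 (SE, adjusted p 0.040 in limma), was the smallest called there and ended without replicate 2 of ET at 0 min, either ET library at 10 or 30 min, replicate 1 of ET at 60 min, or replicate 2 of FK506 at 30 or 60 min (-0.083 to -0.16). The 60 min change in ET was -0.79 ± 0.053 (SE, adjusted p 4.9e-10 in limma) for *EFT1* and -1.96 ± 0.052 (SE, adjusted p 1.0e-15 in limma) for *EFT2*.

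Both release genes were lower at each time in both treatments, and their change was lower in ET than in FK506 at 30 and 60 min. In FK506 at 60 min the call of *SUP35* (-0.30) ended with either of 2 single libraries left out (-0.22 to -0.24). *SUP35* (YDR172W, chromosome IV, 808324 to 810381, forward strand) encodes eRF3, the GTPase of termination known for its prion form. In ET *SUP35* went from 642 and 619 CPM (0 min) through 499 and 465 (10 min) and 303 and 298 (30 min) to 233 and 284 (60 min). In FK506 *SUP35* went from 606 and 571 CPM (0 min) through 446 and 398 (10 min) and 333 and 376 (30 min) to 449.7 and 507 (60 min). Its ET pairs were lower at each time without overlap, but the step from 30 to 60 min had no call. In ET *SUP45* went from 575 and 553 CPM (0 min) through 391 and 358 (10 min) and 177 and 176 (30 min) to 163 and 164 (60 min). In FK506 *SUP45* went from 528 and 496 CPM (0 min) through 348 and 301 (10 min) and 247 and 259 (30 min) to 411 and 398 (60 min). For *SUP45* (eRF1, which reads the stop codon; YBR143C, chromosome II, 530869 to 532182, reverse strand) the ET pairs of 30 and 60 min were close together, and in both genes the FK506 pair of 60 min lay above the 30 min pair. At 30 min the difference of *SUP45* was -0.66 ± 0.086 (SE, adjusted p 3.8e-05 in limma). That of *SUP35*, -0.34 ± 0.12 (SE, adjusted p 0.043 in limma), lost its call without either ET library at 0 min or at 30 min and without replicate 2 of FK506 at 0 or 30 min (-0.24 to -0.38). The 60 min difference was -1.44 ± 0.085 (SE, adjusted p 2.8e-10 in limma) for *SUP45* and -0.99 ± 0.12 (SE, adjusted p 2.4e-06 in limma) for *SUP35*.

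Since 5 of these factors come from gene pairs, the log2 ratio of the raw counts of both copies was taken within each library, which needs no scaling between libraries. Reads were 50 bases long, and of the 50-base stretches of the coding sequence 84.9% were shared between *TIF1* and *TIF2*, 92.5% between *TEF1* and *TEF2* and 91.9% between *EFT1* and *EFT2*, so the split of counts between these copies is uncertain and their difference may be understated. *TIF4631* and *TIF4632*, and *TEF4* and *CAM1*, shared none. The coding sequences of *TIF1* and *TIF2* differ at 6 bases, those of *TEF1* and *TEF2* at 2 and those of *EFT1* and *EFT2* at 4. A window of 60 bases from each is shown with the differing bases in capitals, since reads can be told apart only over such bases.
*TIF1* (chrXI:555183-555242, forward strand): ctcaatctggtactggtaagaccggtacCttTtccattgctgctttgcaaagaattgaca
*TIF2* (chrX:154436-154495, reverse strand): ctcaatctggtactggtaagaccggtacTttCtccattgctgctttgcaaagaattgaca
*TEF1* (chrXVI:701325-701384, forward strand): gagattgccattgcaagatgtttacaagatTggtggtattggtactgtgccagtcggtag
*TEF2* (chrII:478402-478461, forward strand): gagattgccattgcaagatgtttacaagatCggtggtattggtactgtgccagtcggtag
*EFT1* (chrXV:575514-575573, forward strand): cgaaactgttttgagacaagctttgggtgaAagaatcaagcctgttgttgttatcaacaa
*EFT2* (chrIV:1243646-1243705, forward strand): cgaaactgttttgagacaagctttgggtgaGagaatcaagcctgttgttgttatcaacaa

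The log2 ratio of *TIF4631* to *TIF4632* in ET went from 1.97 and 1.94 (0 min) through 1.41 and 1.14 (10 min) and -0.27 and -0.27 (30 min) to 0.19 and 0.18 (60 min). In FK506 it went from 1.88 and 1.74 (0 min) through 1.09 and 0.76 (10 min) and 0.29 and 0.47 (30 min) to 1.62 and 1.48 (60 min). The excess of *TIF4631* was thus gone in ET at 30 min and had returned in FK506 at 60 min. The log2 ratio of *TEF4* to *CAM1* in ET went from 2.48 and 2.41 (0 min) through 2.098 and 1.91 (10 min) and 0.82 and 0.69 (30 min) to -0.52 and -0.37 (60 min). In FK506 it went from 2.38 and 2.36 (0 min) through 1.96 and 1.82 (10 min) and 1.09 and 0.99 (30 min) to 1.03 and 1.07 (60 min). *TEF4* was the more counted copy in each library but those of ET at 60 min. The log2 ratio of *EFT1* to *EFT2* in ET went from 0.0092 and 0.12 (0 min) through 0.18 and 0.21 (10 min) and 0.58 and 0.69 (30 min) to 1.27 and 1.21 (60 min). In FK506 it went from 0.11 and 0.063 (0 min) through 0.21 and 0.16 (10 min) and 0.49 and 0.55 (30 min) to 0.40 and 0.36 (60 min). The eEF2 ratio was highest in ET at 60 min.

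Over both treatments the ratio was 1.27 ± 0.034 (SD, n = 4) at 0 min and 2.23 ± 0.19 (SD, n = 4) at 30 min for *TIF1* to *TIF2*. It was 1.88 ± 0.10 (SD, n = 4) at 0 min and 0.056 ± 0.38 (SD, n = 4) at 30 min for *TIF4631* to *TIF4632*, -0.13 ± 0.022 (SD, n = 4) at 0 min and -0.66 ± 0.069 (SD, n = 4) at 30 min for *TEF1* to *TEF2*, and 2.41 ± 0.053 (SD, n = 4) at 0 min and 0.90 ± 0.18 (SD, n = 4) at 30 min for *TEF4* to *CAM1*. For *EFT1* to *EFT2* it was 0.075 ± 0.050 (SD, n = 4) at 0 min and 0.58 ± 0.084 (SD, n = 4) at 30 min. In each of the 5 pairs the libraries of 30 min did not overlap those of 0 min. The ratio moved the same way in 4 of 4 time courses, and that count alone fixes the result of the test that follows. The courses are 2 of ET and 2 of FK506, so each SD at 30 min also holds any difference between treatments. An exact two-sided permutation test that flips the sign of the change within each course gave p = 0.125 for each pair (0.125 after BH adjustment over the 5 pairs), the smallest that 4 courses allow, so this design cannot reach the threshold. At 60 min the eIF4A ratio (*TIF1* to *TIF2*; the helicase) was 1.97 ± 0.057 in ET and 1.21 ± 0.079 in FK506 (SD, n = 2), the latter near its 0 min value.

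**Figure D4:**
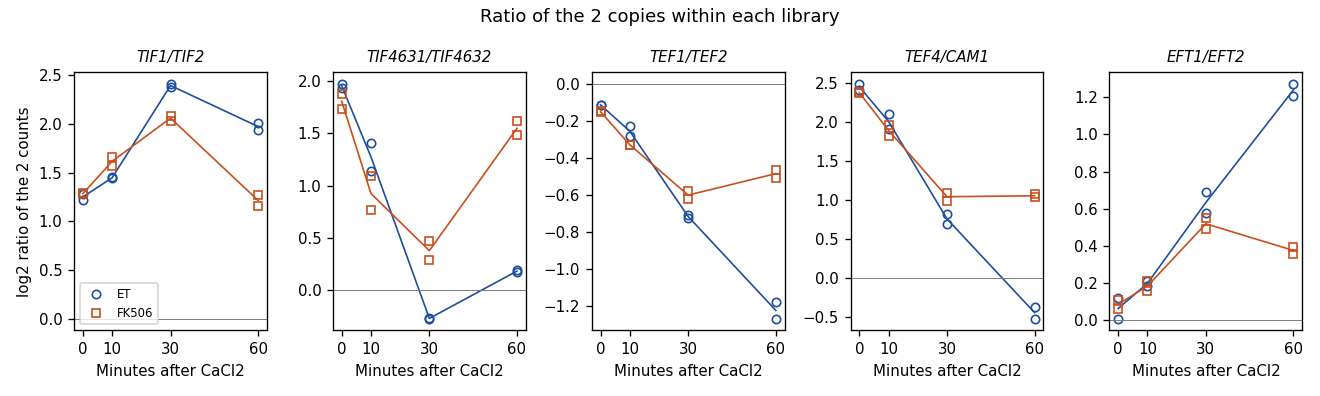
Log2 ratio of the raw counts of both copies (y axis) within each library against minutes after CaCl2 (x axis) for 5 gene pairs, with circles for ET, squares for FK506 and lines through the means of 2 replicates. In each pair the ratio at 30 min lies apart from that at 0 min; at 60 min the *TEF4* to *CAM1* ratio is -0.45 in ET and 1.05 in FK506.

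Sequence upstream of the genes was not used to choose them. In the same window of 300 bases, 28 of the 36 genes (77.8%) had AAAATTT on either strand, against 24.2% of 6001 windows of all protein-coding genes, and 11 (30.6%) had GATGAG, against 18.4%. The Rap1 consensus was in 1 (2.78%, against 1.68%), AGGGG in 5 (13.9%, against 23.5%) and TGACTC in 0, against 8.47%. Mean AT content was 63.3% in the windows of the set and 63% in all, and 18 of the 36 windows overlap another gene (50%, against 47%). Genes without the RRPE core included those with 60 min changes in ET of -2.12 (*TIF11*), -1.38 (*GCN3*), -1.36 (*GCD2*), -0.99 (*GCD6*), -1.77 (*PRT1*), -0.55 (*TIF4632*) and 0.46 (*CAM1*). The median of the 8 tested genes without it was -1.17, and that of the 27 tested genes with the match was -1.62, with ranges that overlap widely.

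**Figure D5:**
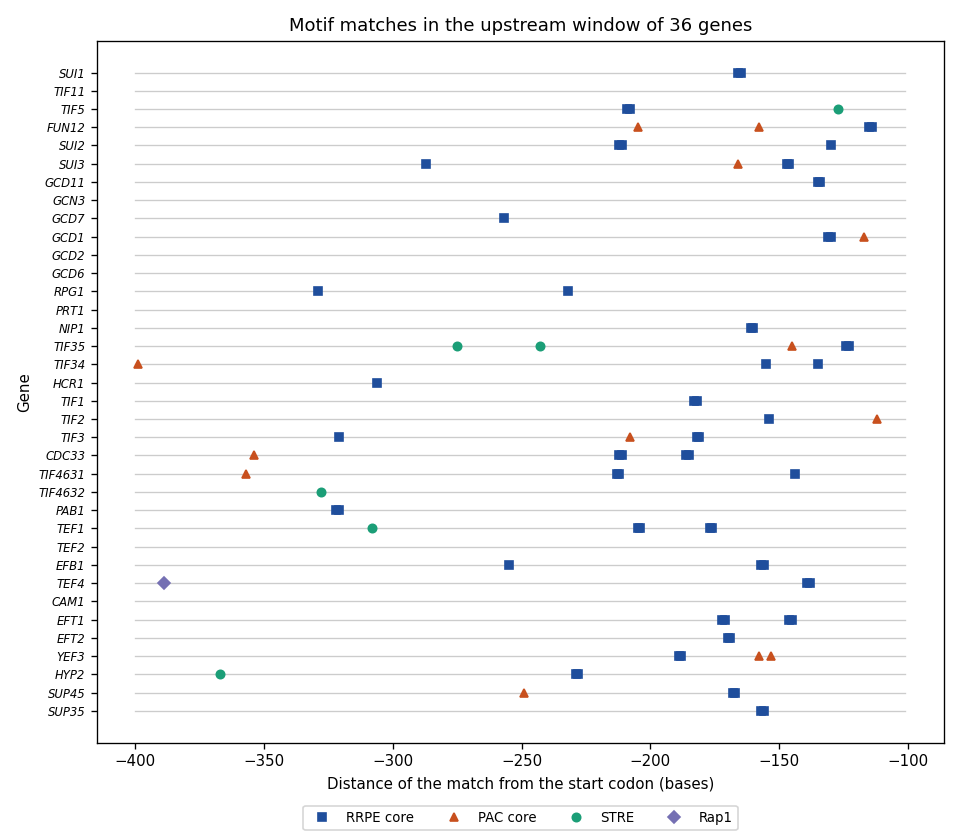
Position of motif matches (x axis, bases before the start codon) in the window of each of the 36 genes (y axis, in order of role), with squares for the RRPE core, triangles for the PAC core, circles for the stress element and a diamond for Rap1; adjoining squares are matches on both strands. The RRPE core is present in 28 windows and absent from 8, those of *TIF4632* and *CAM1* among them.

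As a share of all counts, the genes together (*HYP2* adding 0) took 3.82% ± 0.055 (SD, n = 2) in ET at 0 min, 3.13% ± 0.12 at 10 min, 1.68% ± 0.065 at 30 min and 1.11% ± 0.052 at 60 min. In FK506 they took 3.68% ± 0.011, 2.86% ± 0.15, 1.97% ± 0.019 and 2.45% ± 0.048 at these times. The ET share at 60 min was the lowest of the groups, and the FK506 share at 60 min was above that at 30 min. *YEF3* alone took 1.54% and 1.52% of ET counts (replicates 1 and 2) before CaCl2, but 0.153% and 0.165% by 60 min. With FK506 *YEF3* began with 1.45% and 1.49%, then held 0.726% and 0.757% by 60 min. Much of the movement of the sum thus came from *YEF3*, and the sum does not describe a typical member. The sum also holds the 6 near-identical copies, for which the counting of shared reads is not known. Leaving out the 6 genes with near-identical copies gave 28 genes lower and 1 higher of 29 in ET at 60 min (median -1.60) and 28 lower of 29 for the 60 min difference.

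Other genes of the pathway, from a fixed list of 25 that were not members, were mixed. This list too was chosen with earlier results of these data known. In ET at 60 min 18 were lower, 5 higher and 2 not called (median -1.04), and for the 60 min difference 16 were lower in ET, 4 higher and 5 not called (median -0.99). *HEF3*, the paralog of *YEF3*, had 14.0 and 13.3 CPM at 0 min and 38.0 and 33.9 at 60 min in ET, a log2 change of 1.40 ± 0.13 (SE, adjusted p 4.9e-08 in limma), and *DBP1*, the paralog of the initiation helicase gene *DED1* (neither a member), went from 20.1 and 19.6 to 66.4 and 62.8, a change of 1.70 ± 0.11 (SE, adjusted p 1.7e-10 in limma). *ANB1*, the paralog of *HYP2* that is known to be used when oxygen is low, had a change of -3.40 ± 0.15 (SE, adjusted p 1.1e-12 in limma), and *LIA1*, whose product completes the hypusine of eIF5A, one of -3.77 ± 0.18 (SE, adjusted p 4.7e-12 in limma). *GCN2*, for the eIF2 alpha kinase, rose by 0.32 on the log2 scale. At the same time 132 of 134 ribosomal protein genes were lower (median -3.05), and 35 of 35 *UTP* and *NOP* genes of ribosome biogenesis were (median -2.68), both deeper than the median of -1.60 for the factors. Their median ET minus FK506 differences at 60 min were -2.21 and -2.60, against -1.20 for the factors. Their median rises in FK506 from 30 to 60 min were 0.53 and 1.20, against 0.54, so neither trait was particular to the factors.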

How the data were processed

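Duplicate time courses of 1 strain were measured by RNA-seq (50-base single-end reads, strand-specific kit, rRNA-depleted total RNA). The authors deposited whole-number read counts per gene (unnormalized), aligned to R64-1-1; the submitters' processing notes list TopHat2 2.1.1, featureCounts and Subread 1.5.3, and the study's methods name HTSeq for counting. How reads that fit both copies of a pair were counted is not given in the sources used here. Libraries held 11221758 to 11970166 counts, and replicates differed beyond sampling noise (chi-square per degree of freedom 5.39 to 11.4).

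Counts were filtered with filterByExpr (minimum 10), scaled by TMM and fitted over all 16 libraries with limma 3.58.1 voom (edgeR 4.0.16, R 4.3.3), with the 8 groups, replicate number as batch and a correlation within each time course (-0.117). P-values were BH-adjusted over 6206 genes, separately for each of 12 contrasts. That replicate number is the study's batch and the time course its correlated unit was assumed. The steps were tested on simulated data. Alternatives included edgeR, DESeq2 1.42.0, other scalings and filters, and leaving out each library. With 2 against 2 libraries a permutation test cannot go below 0.333, so single genes rest on the model. Per-library values are given for the 1 to 3 most counted genes of each role and for the highest and lowest called change of each comparison. *TIF4632* was added as the partner of *TIF4631*. The members and gene lists were chosen with earlier results of these data known. Sequences are from the RefSeq R64 genome. The upstream window of 1 gene is not reported here.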

Additional observations from a re-analysis of the deposited data

Results flagged for a closer look

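The change from 0 min differed between ET and FK506 for 23 genes at 30 min and 34 at 60 min, by the limma test of the difference itself. Of all genes tested, 31.7% were called at 30 min and 51.9% at 60 min. The results of the 23 and 34 genes are those singled out here. Each value is the log2 change in ET minus that in FK506, and each of the 57 is below 0. Groups of 2 libraries are too small for a test of single outlying libraries.

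Among the start codon genes the difference at 30 min was -0.77 (*SUI1*) and -0.78 (*TIF5*). For eIF2 it was -0.58 (*SUI2*), -0.38 (*SUI3*) and -0.41 (*GCD11*). For eIF2B the values were -0.67 (*GCN3*), -0.55 (*GCD7*), -0.42 (*GCD1*) and -0.51 (*GCD2*). Those of eIF3 were -0.62 (*RPG1*), -0.51 (*PRT1*), -1.17 (*NIP1*), -0.52 (*TIF35*) and -0.55 (*TIF34*). In the eIF4 group they were -0.36 (*TIF2*), -0.42 (*CDC33*) and -0.92 (*TIF4631*). In elongation they were -0.16 (*TEF1*), -0.38 (*EFB1*), -0.32 (*TEF4*) and -0.33 (*YEF3*). For the release genes they were -0.66 (*SUP45*) and -0.34 (*SUP35*). *TIF11*, *FUN12*, *GCD6*, *HCR1*, *TIF1*, *TIF3*, *TIF4632*, *PAB1*, *TEF2*, *CAM1*, *EFT1* and *EFT2* had no call at 30 min. Apart from *TEF1* and *SUP35*, the calls that ended with 1 library left out were *SUI3* (-0.24 to -0.36; replicate 1 of ET at 0 or 30 min, replicate 2 of FK506 at 0 or 30 min), *GCD11* (-0.25 to -0.31; replicate 2 of ET or of FK506 at 30 min), *GCD2* (-0.35 to -0.44; replicate 1 of ET at 0 or 30 min, replicate 2 of FK506 at 30 min) and *TIF2* (-0.30, replicate 2 of ET at 30 min).

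At 60 min the start codon genes had -0.98 (*SUI1*), -1.33 (*TIF11*), -1.39 (*TIF5*) and -1.16 (*FUN12*). eIF2 had -1.20 (*SUI2*), -1.16 (*SUI3*) and -1.35 (*GCD11*). The eIF2B genes had -1.29 (*GCN3*), -0.88 (*GCD7*), -0.78 (*GCD1*), -1.08 (*GCD2*) and -0.77 (*GCD6*). The eIF3 genes had -1.51 (*RPG1*), -1.44 (*PRT1*), -2.01 (*NIP1*), -1.33 (*TIF35*), -1.20 (*TIF34*) and -0.28 (*HCR1*). The eIF4 group had -0.77 (*TIF1*), -1.56 (*TIF2*), -1.49 (*TIF3*), -0.91 (*CDC33*), -1.81 (*TIF4631*), -0.30 (*TIF4632*) and -0.95 (*PAB1*). Elongation genes had -1.20 (*TEF1*), -0.42 (*TEF2*), -1.20 (*EFB1*), -1.51 (*TEF4*), -0.42 (*EFT1*), -1.31 (*EFT2*) and -2.39 (*YEF3*). Release genes had -1.44 (*SUP45*) and -0.99 (*SUP35*). The call of *TIF4632* ended without replicate 1 of ET at 0 or 60 min, either ET library at 30 min, or replicate 2 of FK506 at 0, 30 or 60 min (-0.17 to -0.28), and that of *HCR1* as given above.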

How the results depend on the processing

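On 9 other settings (edgeR, DESeq2, no replicate block, raw library totals, RLE factors, a model without time-course correlation, scaling without the 10 most counted genes, and a looser or stricter filter) the number of genes called of 35 was 29 to 33 in ET at 10 min, 34 to 35 at 30 min and 35 at 60 min. In FK506 it was 30 to 33, 34, and 23 to 32, the 23 on raw library totals. For the difference between treatments it was 0 at 10 min, 21 to 23 at 30 min and 33 to 34 at 60 min, for 60 against 30 min it was 16 to 17 in ET and 27 to 31 in FK506, and at 0 min it was 0. Leaving out 1 library gave 29 to 33, 34 to 35 and 35 in ET, 29 to 33, 34 and 22 to 32 in FK506, 0, 18 to 24 and 32 to 34 for the difference, 12 to 18 and 27 to 31 for 60 against 30 min, and 0 at 0 min. The lowest count in FK506 at 60 min was without its replicate 1 at 0 min.

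Requiring a log2 change of at least 1 left 1 gene in ET at 10 min, 1, 15 and 1 in FK506 at 10, 30 and 60 min, 1 and 22 for the difference at 30 and 60 min, and 1 and 0 for 60 against 30 min in ET and FK506. Without subtracting 0 min, 9 genes were called at 10 min, each higher in ET. The share over all genes is not given for this setting, so the count is not read as particular to the set. At 0 min 33 of the 35 genes were already nominally higher in ET. Raw library totals turned the 30 min change in ET of *TIF4632* from -0.20 to 7e-05 (limma adjusted p 0.999), of *GCN1* from -0.16 to 0.041 (limma adjusted p 0.48) and of *GCN20* from -0.12 to 0.082 (limma adjusted p 0.15), and ended 27 of 420 gene results. It also brought *TIF4632* under the threshold for 60 against 30 min in FK506, at -0.25 (adjusted p 0.021 in limma). Group values from replicate 1 or replicate 2 alone allow no test.

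Replicate numbers were a batch term in the study's model. Same-numbered ET and FK506 libraries deviated together with correlations of 0.0822 to 0.176, under 0.1 at 1 time, so the numbers are not taken to pair the libraries. Without the replicate block 31, 34 and 35 genes were called in ET, 31, 34 and 31 in FK506, 0, 21 and 33 for the difference, 16 and 30 for 60 against 30 min and 0 at 0 min, and 10 of 420 gene results lost the call.

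With 2 libraries a group, 7 residual degrees of freedom and 1 strain, the tests measure the spread between these libraries only. The study's methods describe the 2 runs of each time course as biological replicates. Counts of 3 or fewer in the smallest library allow up to 0.267 CPM.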

Other observations

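Some other genes that act with these factors had changes in ET at 60 min below the median of -1.60 for the set, whose lowest member was at -3.50 (*YEF3*). *NEW1*, for an ABC ATPase of termination, changed by -2.61 ± 0.10 (SE, adjusted p 2.2e-13 in limma), *RLI1*, the ribosome recycling ATPase, by -2.32 ± 0.11 (SE, adjusted p 2.6e-12 in limma), and *STM1*, which clamps idle ribosomes, by -2.21 ± 0.052 (SE, adjusted p 2.1e-16 in limma). Limma tests of the ET minus FK506 difference at 60 min gave -3.34 ± 0.21 (SE, adjusted p 8.7e-10 in limma) for *LIA1*, -1.10 ± 0.19 (SE, adjusted p 8.8e-05 in limma) for *ANB1*, 1.53 ± 0.15 (SE, adjusted p 2.5e-07 in limma) for *DBP1* and 0.93 ± 0.20 (SE, adjusted p 8.0e-04 in limma) for *HEF3*. *HBS1*, whose product rescues stalled ribosomes, and *EAP1*, an eIF4E-binding protein, rose by 0.39 and 0.21 on the log2 scale in ET at 60 min.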
